A study of Arabidopsis thaliana with 12 samples.

Results

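The genes described here are 39 named genes of *Arabidopsis thaliana* whose array signal was lower in the psad1 mutant than in wild type (WT). They were chosen from 640 tested probes for which the platform annotation lists exactly 1 gene, out of 3439 probes on the array. A gene was taken when the mean log2 intensity of 6 psad1 samples lay at least 0.25 below that of 6 WT samples, and 4 further genes that met this limit (CCL, CSLA01, PRK and AT1G29070) were left out by the rule. The differences between the genotypes therefore chose the genes, and are given as a description with no test. Both genotypes were of ecotype Columbia 0 and gave total RNA, with samples numbered 1 to 6 in each. The mutant is described as lacking PSI-D1, a stromal subunit of photosystem I, and nothing else in the labels sets the groups apart. The sources used here name no tissue, plant age or growth condition, and in a bulk sample fewer cells of a type and less RNA per cell cannot be told apart.

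Photosystem I is the chloroplast complex that uses light to pass electrons to ferredoxin, and PSI-D forms part of the surface where ferredoxin docks. Most of its subunits, and most chloroplast proteins of any kind, are encoded in the nucleus, made in the cytosol and imported. Chaperonins, assembly chaperones such as BSD2 and the Clp protease then fold, assemble and degrade them inside the organelle. Genes for such plastid proteins were among the 39, next to genes with quite different products. The share of plastid proteins among all tested genes was not counted, so nothing is read from their presence.

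The samples had mean intensities of 1.05 to 1.07, and no probe was listed for PSAD1 or PSAD2, so the genotype labels were taken as given. Of the 14 tissue markers looked for, 2 had a tested probe of their own. The antenna gene LHB1B2 had a median intensity of 18.7 in WT and 17.4 in psad1, and PSAN, a photosystem I subunit gene, had 4.63 and 5.80. Samples 1 and 2, 3 and 4, and 5 and 6 of each genotype resembled each other. Their deviations from the genotype mean correlated across probes with r between 0.469 and 0.649, which describes these samples only. Each standard error (SE) below is that of a difference between 3 averages of such sets per genotype, and each mean ± SD is over 3 set averages. Sets were not paired between genotypes, so the SE includes any level that same-numbered sets share. With limma on 12 samples, 258 of all 3202 tested probes were lower in psad1 and 247 higher at an adjusted p under 0.05, against 13 and 15 on set averages. Lower probes thus made up 8.06% of those tested on 12 samples and 0.406% on set averages.

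The log2 differences of the 39 genes ran from −0.73 to −0.25, with a median of −0.30, which corresponds to signals between 39.7% and 16.0% lower in psad1. The median over all tested probes was −0.02. Values at or below −0.25 made up 6.72% of the tested probes with 1 gene (43 of 640, the 4 genes left out included) and 7.53% of all tested probes. The opposite limit, 0.25 or more, was met by 77 of the 640. Just inside the limit were AT2G15440 (−0.257), AT5G65250 (−0.254) and AT5G52810 (−0.2508), and just outside it AT1G67800 (−0.2496), AT2G30100 (−0.2474) and AT5G63290 (−0.2472). Genes thus lay close to the limit on both sides of it.

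**Figure D1:**
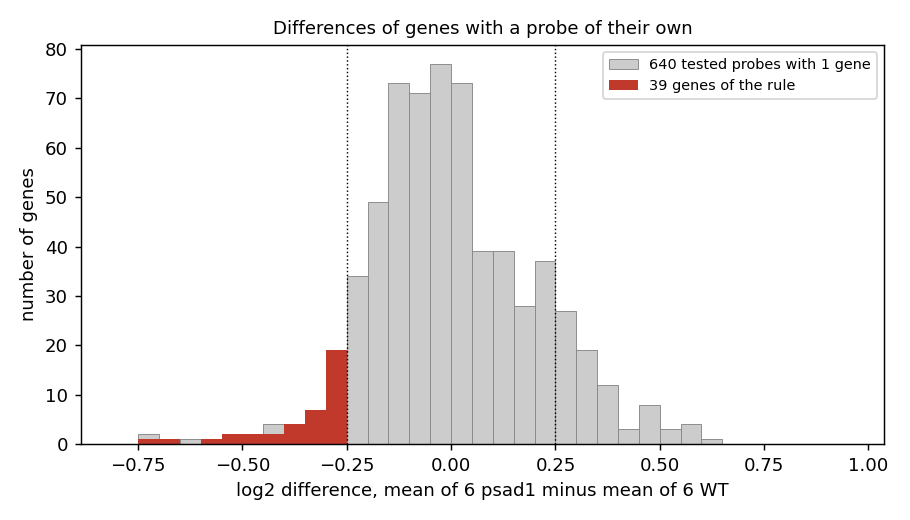
Histogram of the log2 difference (mean of 6 psad1 minus mean of 6 WT samples, horizontal axis) for the 640 tested probes with 1 gene (grey, number of genes on the vertical axis) and the 39 genes described here (red). Dotted lines mark −0.25 and 0.25, beyond which 43 and 77 genes lie.

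By product, 6 of the 39 genes act in protein folding and turnover, 6 in metabolism, 4 on chromatin and DNA, 3 on RNA and 4 on cell walls and glycans, and 5 encode signalling proteins or proteins known by another domain. For the remaining 11 no role is given. The roles of 5 genes rest on names in the gene table, and those of 23 on general knowledge of the Arabidopsis genome. In 18 genes every psad1 sample lay below every WT sample, and in 21 the genotypes overlapped. Among all tested probes, 4.84% had every psad1 sample below every WT sample. The rule used this same contrast, so nothing is read from that difference.

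**Figure D2:**
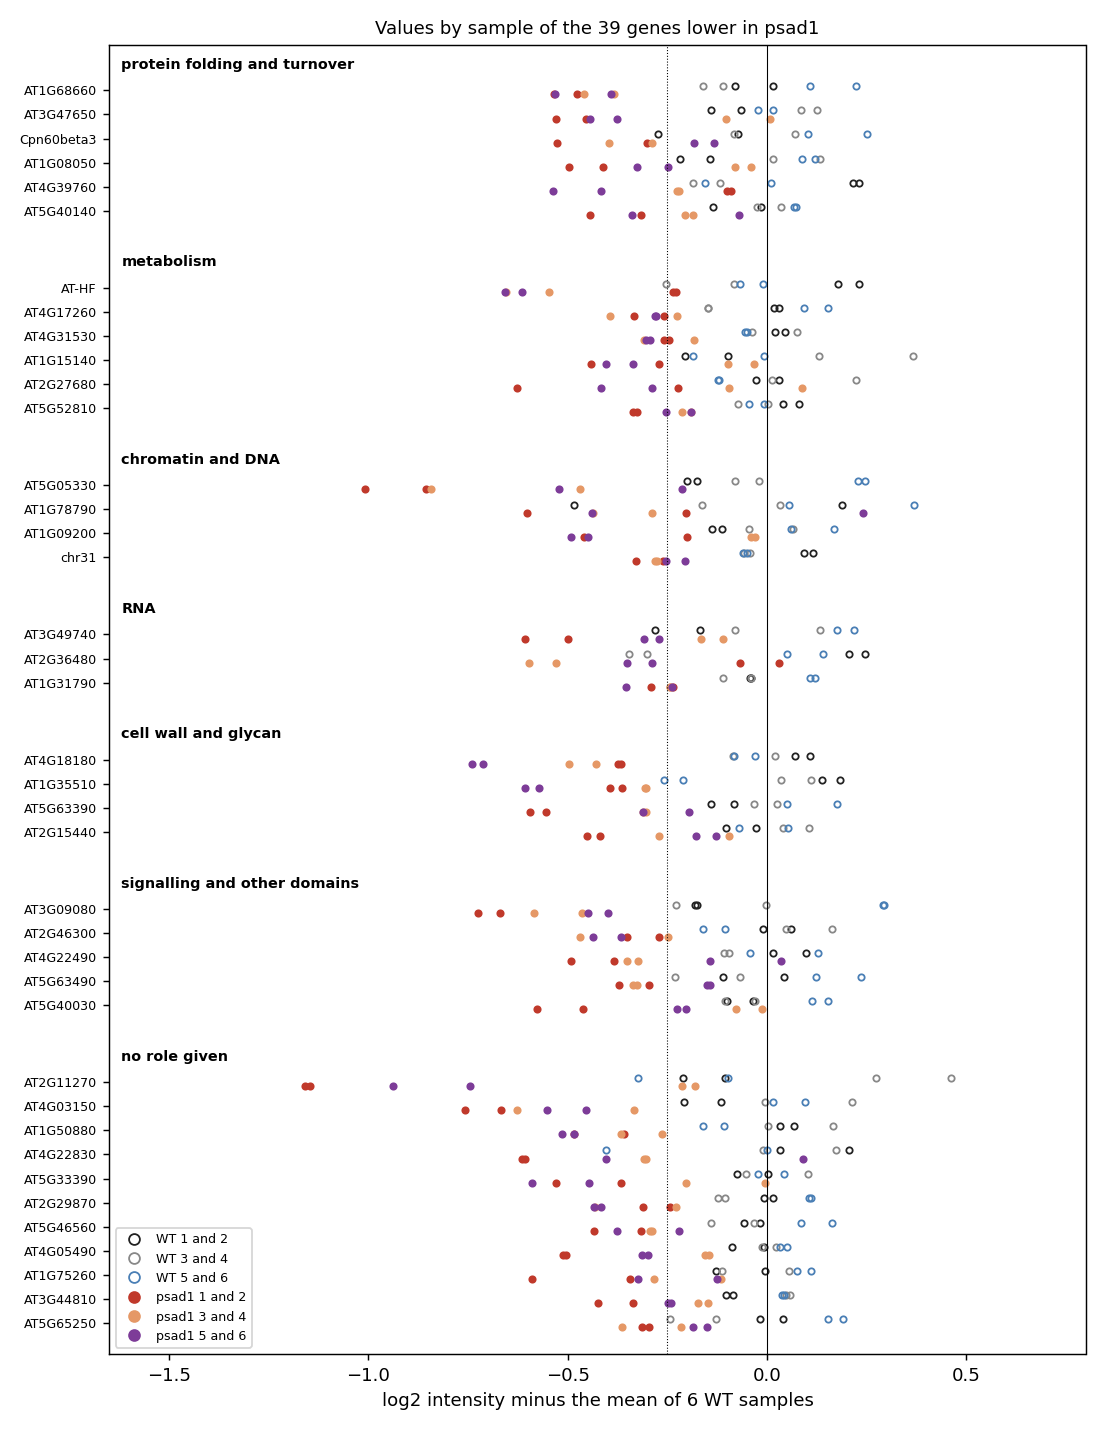
Log2 intensity of each sample minus the mean of the 6 WT samples (horizontal axis) for the 39 genes, grouped by product. Open circles are WT samples and filled circles psad1 samples, coloured by set of 2; the solid line marks the WT mean and the dotted line −0.25. In 18 genes all filled circles lie left of all open ones.

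Among genes of protein folding and turnover, the widest difference was that of AT1G68660, which encodes CLPS1, the adaptor that hands substrates to the Clp protease of the chloroplast stroma. WT samples 1 to 6 had intensities of 1.07, 0.9998, 0.979, 0.946, 1.23 and 1.14, and psad1 samples 1 to 6 had 0.759, 0.730, 0.810, 0.768, 0.806 and 0.730. All psad1 samples thus lay below all WT samples, and the psad1 samples were closer to each other than the WT samples were. The means were 1.06 ± 0.114 (SD, n = 3 sets) in WT and 0.767 ± 0.0222 in psad1, a log2 difference of −0.46 (SE 0.09). Of 16 genes listed for the plastid Clp system, 2 had a tested probe of their own. The other was AT2G03390, which encodes CLPF, the partner of CLPS1 in substrate delivery, with a median of 0.936 in WT and 0.817 in psad1 and a log2 difference of −0.08.

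A pair of plastid chaperone genes belonged to the same class. AT3G47650, which encodes BSD2, a chaperone in the assembly of the CO2-fixing enzyme Rubisco, had WT intensities from 1.88 through a median of 2.06 to 2.26, and psad1 intensities from 1.43 through 1.56 to 2.08. The genotypes overlapped, because psad1 samples 3 and 4 stood at 2.08 and 1.93, among the WT samples, while the other 4 psad1 samples lay below them all. The log2 difference was −0.32 (SE 0.15). Cpn60beta3 (AT5G56500), a beta subunit of the chloroplast chaperonin, the barrel in which imported proteins fold, ranged from 0.380 to 0.546 in WT with a median of 0.460. In psad1 it ranged from 0.319 to 0.419 with a median of 0.374, so that its genotypes overlapped too, at a log2 difference of −0.30 (SE 0.13).

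The other 3 genes of this class belong to protein families that mark proteins with ubiquitin outside the plastid. AT5G40140 encodes the U-box protein PUB40 and had a log2 difference of −0.26 (SE 0.07), with 5 of 6 psad1 samples below all WT samples. AT1G08050, for a RING-type zinc finger protein, had −0.27 (SE 0.15), and AT4G39760, for an F-box protein with kelch repeats, had −0.26 (SE 0.16), or −0.17 with medians in place of means. In each of the latter pair 4 psad1 samples lay below all WT samples. For AT4G39760 psad1 samples 5 and 6 were lowest (3.84 and 3.53), whereas for AT1G08050 psad1 samples 1 and 2 were (0.299 and 0.317).

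In metabolism, AT-HF (AT4G26900, HISN4) had the widest difference. Its product is imidazole glycerol phosphate synthase, the plastid enzyme that closes the imidazole ring of histidine. WT samples 1 to 6 had intensities of 1.01, 0.974, 0.723, 0.813, 0.855 and 0.821, and psad1 samples 1 to 6 had 0.735, 0.731, 0.547, 0.589, 0.546 and 0.562. The genotypes met where psad1 samples 1 and 2 stood just above WT sample 3, and the other 4 psad1 samples lay below all WT samples. The means were 0.866 ± 0.115 and 0.618 ± 0.0996, a log2 difference of −0.49 (SE 0.17). Of 11 genes listed for histidine synthesis it was the 1 gene with a tested probe of its own, so the rest of the pathway was not analysed here.

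The other 5 metabolic genes encode enzymes or enzyme-like proteins that use nicotinamide or flavin cofactors. AT4G31530, for a protein with an NAD(P)-binding Rossmann fold, had the smallest SE of all 39 genes. Its intensity ran from 28.4 through a median of 29.4 to 31.1 in WT and from 23.9 through 24.4 to 26.0 in psad1, with no overlap and a log2 difference of −0.27 (SE 0.03). With all samples brought to the same distribution of values (quantile normalization), this difference was −0.19, outside the limit. AT4G17260, of the lactate dehydrogenase family, whose members interconvert pyruvate and lactate, ran from 0.942 through 1.06 to 1.16 in WT and from 0.796 through 0.860 to 0.893 in psad1, again without overlap (log2 difference −0.30, SE 0.08). The 3 psad1 set averages of this gene stood at −0.30, −0.31 and −0.28 from the WT mean, and its log2 difference was −0.16 once corrected for probe position.

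AT5G52810, which encodes SARD4, a reductase that makes the immune signal pipecolic acid, lay just inside the limit and did not overlap. Its WT samples had intensities from 1.12 to 1.24 and its psad1 samples from 0.931 to 1.03 (log2 difference −0.25, SE 0.05). AT1G15140, for a flavin-binding oxidoreductase, and AT2G27680, of the aldo/keto reductase family, both had a log2 difference of −0.26, with SE of 0.16 and 0.15. In both, psad1 samples 3 and 4 lay within the WT range, and their average was 0.07 and 0.00 log2 units below the WT mean. AT2G27680 was dim, and its log2 difference was −0.12 with the floor at the 10th percentile and −0.15 with an offset.

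Among genes for chromatin and DNA proteins, AT5G05330, for a protein with an HMG box, a fold that bends DNA, had the widest difference. WT samples 1 to 6 had intensities of 0.289, 0.284, 0.322, 0.309, 0.383 and 0.387, and psad1 samples 1 to 6 had 0.1003, 0.181, 0.131, 0.236, 0.228 and 0.282. All psad1 samples were below all WT samples, if narrowly so for psad1 sample 6. In 2 psad1 samples the intensity was at or under the floor, which lay between 0.152 and 0.184, and was raised to it. The log2 difference of −0.65 (SE 0.21) is thus narrower than the deposited values would give. It depended on the treatment of low values, being −0.40 with the floor at the 10th percentile and −0.47 with an offset. Which treatment is nearer the true difference was not tested.

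Histone H3.1 (AT1G09200), the form of histone H3 laid down as DNA is copied, ran from 0.361 through 0.399 to 0.446 in WT and from 0.282 through 0.318 to 0.388 in psad1. Its overlap came from psad1 samples 3 and 4, at 0.388 and 0.386, and its log2 difference was −0.28 (SE 0.15), or −0.19 with an offset in place of the floor. The gene chr31 (AT1G05490), for a remodelling factor of the DNA methylation machinery, ran from 1.81 through 1.83 to 2.05 in WT and from 1.51 through 1.57 to 1.64 in psad1. Its genotypes did not overlap, and its SE of 0.06 on a log2 difference of −0.27 was among the smaller ones. AT1G78790 (MHF2), a histone-fold protein that acts with the FANCM helicase against meiotic crossovers, had 3 psad1 samples at or under the floor and overlapped widely, from 0.176 to 0.319 in WT and from 0.104 to 0.292 in psad1 (log2 difference −0.29, SE 0.15, and −0.10 with the floor at the 10th percentile).

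Of the 3 RNA genes, AT3G49740 and AT1G31790 encode pentatricopeptide repeat proteins, a family that binds and processes the transcripts of chloroplasts and mitochondria. AT1G31790 did not overlap, with 0.853 to 1.0005 in WT and 0.720 to 0.782 in psad1 (log2 difference −0.27, SE 0.06). AT3G49740 overlapped, with 1.003 to 1.42 in WT and 0.7995 to 1.13 in psad1 (log2 difference −0.33, SE 0.17). AT2G36480, for a protein with an ENTH/VHS domain and a zinc finger, differed from the others in how its sets were ordered. Samples 3 and 4 were its lowest in both genotypes, at 1.15 and 1.12 in WT and 0.985 and 0.938 in psad1, and its log2 difference was −0.30 (SE 0.23).

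The cell wall and glycan genes held an enzyme family of pectin, the gel-like polysaccharide of the wall. AT4G18180, for a pectin lyase-like protein, ran from 1.91 through 2.02 to 2.19 in WT and from 1.21 through 1.47 to 1.57 in psad1. The genotypes were far apart, at 2.03 ± 0.112 and 1.42 ± 0.176, a log2 difference of −0.52 (SE 0.12). Samples 5 and 6 of psad1 were lowest, at 1.24 and 1.21.

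AT1G35510 and AT5G63390 belong to the plant O-fucosyltransferase family, glycosyltransferases named for adding fucose to proteins. AT1G35510 ran from 1.48 through 1.86 to 2.01 in WT and from 1.16 through 1.36 to 1.43 in psad1 (log2 difference −0.42, SE 0.15). AT5G63390 ran from 0.581 through 0.639 to 0.724 in WT and from 0.424 through 0.516 to 0.559 in psad1 (log2 difference −0.38, SE 0.12). Neither overlapped. Each is also listed for a further probe together with 2 other genes, and there the differences were smaller and the genotypes overlapped. That probe had a log2 difference of −0.15 (SE 0.14) for AT1G35510 with AT1G14970 and AT2G01480, and of −0.08 (SE 0.12) for AT5G63390 with AT3G07900 and AT2G44500. The same held for AT4G31530 of the metabolic class, whose further probe, shared with AT5G02240 and AT2G37660, had a log2 difference of 0.12 (SE 0.10), the opposite direction. No other member was listed for a further probe. AT2G15440, of the DUF579 family tied to xylan in secondary walls, ran from 0.452 to 0.521 in WT and from 0.355 to 0.454 in psad1, with psad1 sample 3 just inside the WT range (log2 difference −0.26, SE 0.10).

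Of the 5 signalling and other domain proteins, AT3G09080 encodes a protein of WD40 repeats, which form a platform for other proteins. Its intensity ran from 3.18 through 3.51 to 4.57 in WT and from 2.26 through 2.59 to 2.83 in psad1. WT samples 5 and 6 stood highest, at 4.56 and 4.57, and the genotypes did not overlap (log2 difference −0.55, SE 0.17). AT2G46300, for a hydroxyproline-rich protein of the LEA group, ran from 2.10 through 2.38 to 2.63 in WT and from 1.70 through 1.83 to 1.98 in psad1, also without overlap (−0.36, SE 0.07).

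The other 3 of this class overlapped between genotypes. AT4G22490, of the lipid transfer protein family, was dim, with 0.212 to 0.249 in WT, 0.159 to 0.234 in psad1 and 3 psad1 samples at or under the floor (log2 difference −0.28, SE 0.13). With the floor at the 10th percentile this difference was −0.004, and with an offset −0.16. AT5G63490, for a protein with CBS and PB1 domains, had −0.27 (SE 0.11), and the protein kinase gene AT5G40030 had −0.26 (SE 0.15). In AT5G40030 psad1 samples 1 and 2 were lowest, at 0.688 and 0.746, and psad1 samples 3 and 4 (0.972 and 1.02) lay within the WT range of 0.954 to 1.14.

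The 11 genes with no role given included the widest difference of all. AT2G11270 had intensities of 0.629, 0.676, 1.003, 0.880, 0.680 and 0.581 in WT samples 1 to 6 and of 0.326, 0.329, 0.628, 0.642, 0.434 and 0.380 in psad1 samples 1 to 6. Samples 3 and 4 were the highest in both genotypes, and those of psad1 lay within the WT range. Its log2 difference of −0.73 therefore had the largest SE of the 39 genes, 0.34. AT4G03150 was dim, from 0.270 through 0.314 to 0.362 in WT and from 0.185 through 0.208 to 0.248 in psad1, and did not overlap (log2 difference −0.57, SE 0.11). Above the floor in every sample, it still depended on how low values were treated, with a log2 difference of −0.36 with the floor at the 10th percentile and −0.33 with an offset in place of the floor.

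AT1G50880 did not overlap either, with 1.11 to 1.398 in WT and 0.872 to 1.04 in psad1 (log2 difference −0.41, SE 0.09). AT4G22830 had 2 psad1 samples at or under the floor, the lowest at 0.0484, and a log2 difference of −0.36 (SE 0.17) that was −0.06 with the floor at the 10th percentile. AT5G33390 had −0.36 (SE 0.13), with psad1 sample 3 at 1.79, within the WT range of 1.70 to 1.93. The log2 differences of the other 6 were −0.34 for AT2G29870, −0.32 for AT5G46560, −0.32 for AT4G05490, −0.30 for AT1G75260, −0.26 for AT3G44810 and −0.25 for AT5G65250, and 4 of these 6 did not overlap.

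The psad1 sets differed in level, and did so across the array. The average of samples 1 and 2 was the lowest of the 3 psad1 sets in 25 of the 39 genes, that of samples 5 and 6 in 12 and that of samples 3 and 4 in 2. Among all 640 tested probes with 1 gene, samples 1 and 2 were lowest in 63.6%, samples 5 and 6 in 19.8% and samples 3 and 4 in 16.6%. For samples 1 and 2 the share among the 39 genes was thus close to that among these probes. For samples 5 and 6 it was larger, and for samples 3 and 4 smaller. The median distance from the WT mean over the 39 genes was −0.40 for samples 1 and 2, −0.29 for samples 3 and 4 and −0.30 for samples 5 and 6, against −0.11, 0.03 and 0.02 over all tested probes. All 3 psad1 set averages lay below the WT mean in 39 of 39 genes, and all 3 were at least 0.25 below it in 12. The rule chose the genes on the mean of these same sets, and the shares over all tested probes were not counted, so nothing is read from these counts.

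Within sets the values were close. The median difference between the 2 samples of a set was 0.07 on the log2 scale over the 39 genes, and the median range of the 3 set averages of a genotype was 0.27. Over all tested probes these were 0.08 and 0.25. The median SE was 0.12 for the 39 genes and 0.12 for all tested probes. By these medians the 39 genes varied between sets about as much as the array in general.

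Across all alternatives tried for single genes, 9 of the 39 kept a log2 difference of −0.25 or less in every one. They were AT2G11270, AT5G05330, AT4G03150, AT3G09080, AT4G18180, AT-HF, AT1G68660, AT1G35510 and AT2G29870. Most of these had the widest differences by the rule, so that they stayed within the limit largely follows from their distance to it. Leaving out any 1 sample kept 21 of the 39 within the limit, and leaving out any 1 set kept 14. Without psad1 samples 1 and 2, 22 of the 39 stayed within it. AT1G68660 varied between −0.53 and −0.38 over these alternatives, and AT4G18180 between −0.59 and −0.42.

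**Figure D3:**
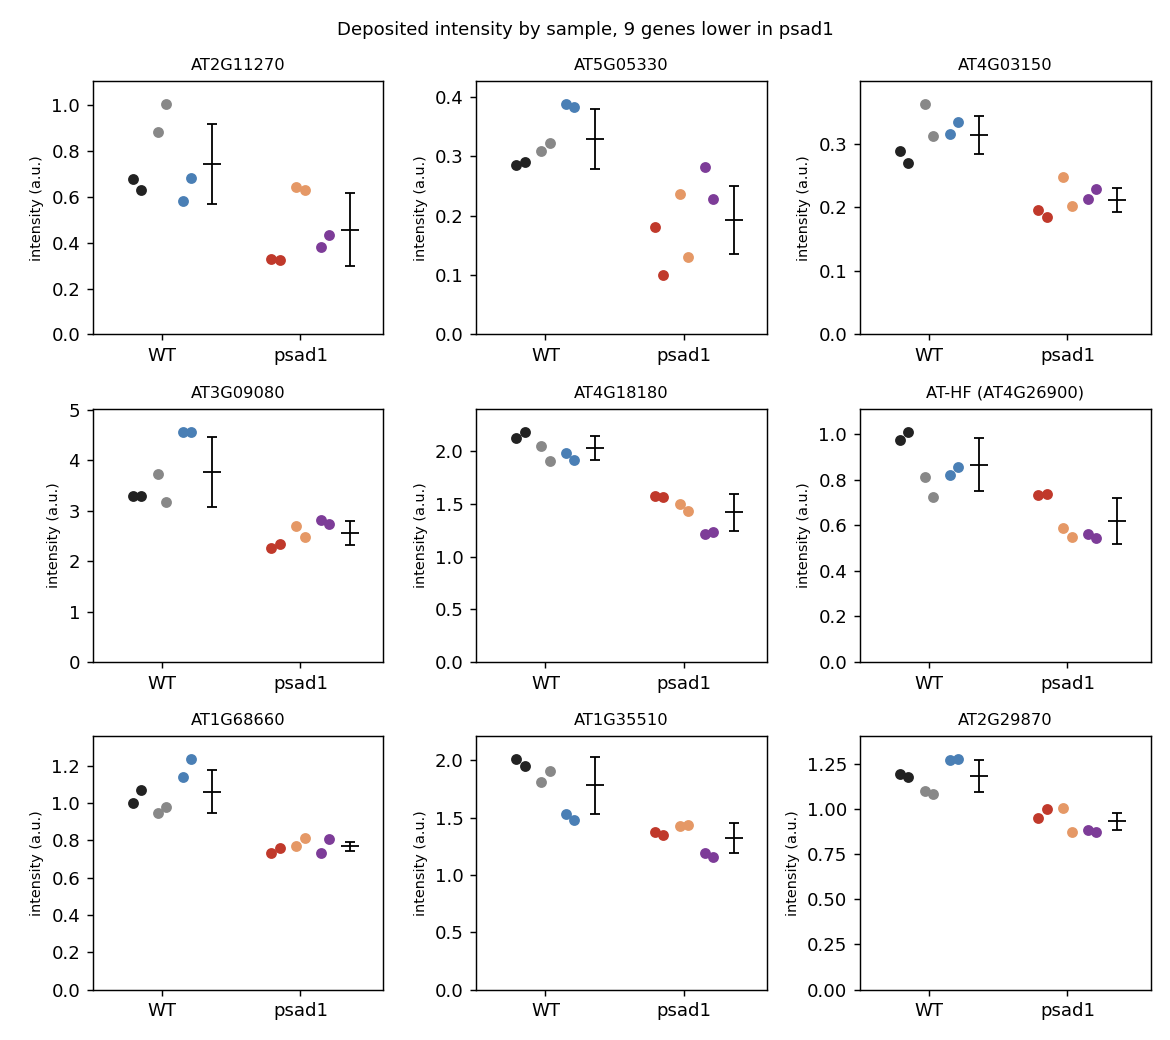
Deposited intensity (arbitrary units, vertical axes from 0) in each sample of WT and psad1 for the 9 genes whose log2 difference was −0.25 or less under every alternative. Points are samples, coloured by set (WT samples 1 and 2 black, 3 and 4 grey, 5 and 6 blue; psad1 samples 1 and 2 red, 3 and 4 orange, 5 and 6 purple), and bars are the mean and SD of 3 set averages; the genotypes overlap in AT2G11270 and AT-HF.

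Log2 differences varied along the probe numbers of the array. In each sample, a running median of the deviations from each probe's mean was taken over 25 neighbouring tested probes in order of number. Its mean in psad1 minus its mean in WT swung between −0.26 and 0.36. The widest gap in probe number between 2 of the 39 genes ran from 974 to 2343 and held 188 of the 640 tested probes with 1 gene. Their median log2 difference was 0.11, against −0.06 for the tested probes with 1 gene elsewhere. The gap was picked after the values were seen and its ends are themselves members, so it is a description of where the genes lie and no more. The running median was then subtracted from the values of each sample.

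After this position correction all 39 genes remained lower in psad1, with a median of −0.20, and 13 remained at −0.25 or less, where 4.62% of all tested probes lay. The rule chose the 39 genes on these same samples, so nothing is read from either count or from that share. AT4G03150 was then widest (−0.60), followed by AT-HF (−0.53), AT2G11270 (−0.50), AT5G05330 (−0.49), AT4G18180 (−0.47), AT3G09080 (−0.45) and AT1G68660 (−0.40). The others of the 13 were AT2G29870 (−0.33), AT2G36480 (−0.33), AT1G35510 (−0.32), AT4G31530 (−0.31), AT4G22490 (−0.28) and AT2G15440 (−0.25). In 20 genes the difference shrank by over 1.5 times. Among these were BSD2, from −0.32 to −0.11 (AT3G47650), Cpn60beta3, from −0.30 to −0.15, histone H3.1, from −0.28 to −0.03 (AT1G09200), AT4G17260, from −0.30 to −0.16, and AT5G63390, from −0.38 to −0.16. AT5G63490 was then at −0.10 and AT5G65250 at −0.14, followed by AT1G15140 (−0.16), AT1G31790 (−0.17), AT4G39760 (−0.18), AT5G46560 (−0.21) and AT4G22830 (−0.23).

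Some of the genes that shrank had nearby probe numbers. AT3G44810, AT5G40030 and AT1G09200 had probe numbers 3038, 3041 and 3043, and log2 differences after correction of −0.05, −0.03 and −0.03. AT5G63390, AT1G75260 and AT5G33390 had 2772, 2775 and 2779, and −0.16, −0.10 and −0.17. AT5G40140 and AT1G50880 had 215 and 220, and −0.06 and −0.20, and AT3G49740 and AT1G08050 had 2478 and 2481, and −0.12 and −0.08. Of the named classes, cell wall and glycan genes kept 3 of 4 members within the limit after correction, metabolism 2 of 6, chromatin and DNA 1 of 4, RNA 1 of 3, signalling and other domains 2 of 5, and protein folding and turnover 1 of 6. AT2G15440 of the cell wall class was just inside (−0.253) and AT2G46300 of the signalling class just outside (−0.247). The classes are small, and no difference between them is read from these counts.

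**Figure D4:**
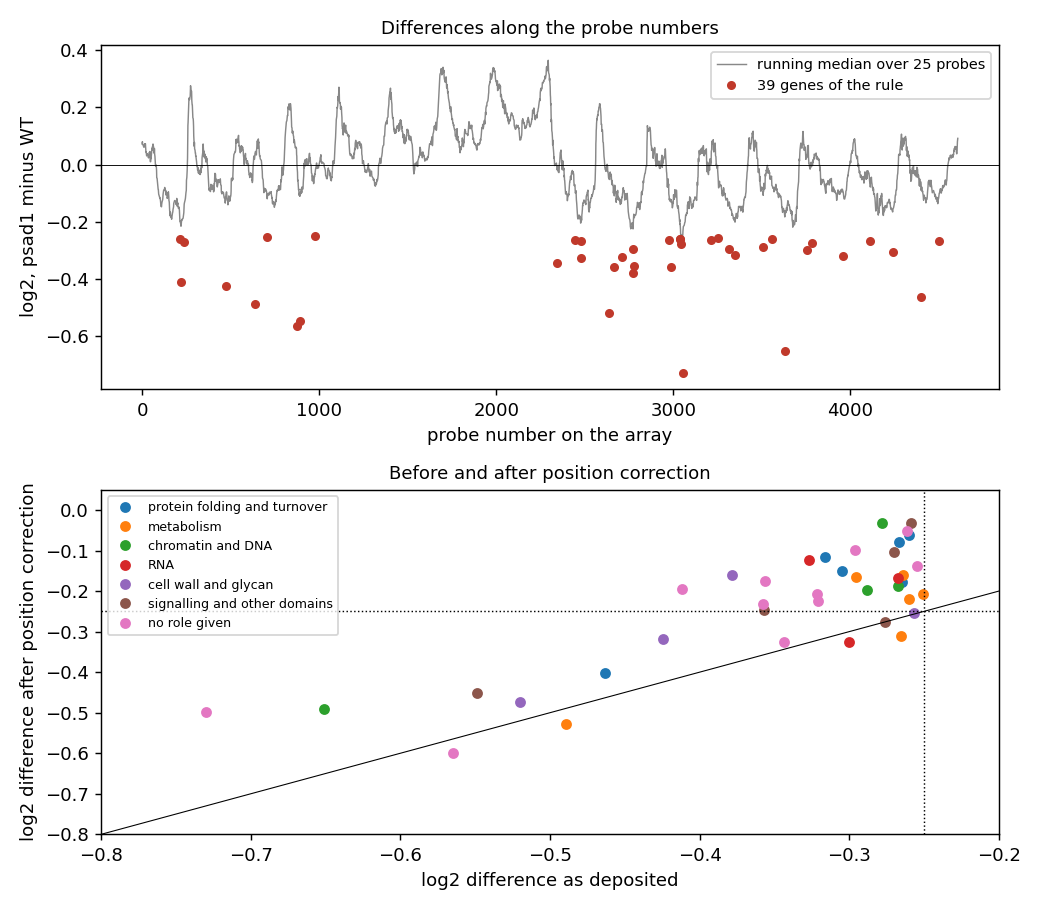
Upper panel: log2 difference of the 39 genes (red points) against probe number on the array. The grey line is the mean of the running medians over 25 probes in psad1 minus that in WT. No red point lies between probe numbers 974 and 2343. Lower panel: log2 difference after position correction against that as deposited, coloured by class, with a solid line of equality and dotted lines at −0.25; 13 genes lie at or below the horizontal line.

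The 39 genes lay on all 5 chromosomes. Chromosomes 1 to 5 held 10, 6, 4, 9 and 10 of them, which is 6.41%, 4.92%, 3.33%, 7.76% and 8% of the tested genes with a probe of their own there. No 2 were adjacent: the closest, AT5G40030 with AT5G40140 and AT5G63390 with AT5G63490, had 8 protein-coding genes between them in the gene table. Most genes of that table had no tested probe of their own and could not be members, so nothing is read from this. The median length of the genes was 1789 bases, against 2114 for all tested genes with a probe of their own.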

How the data were processed

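The authors deposited 1 table of array intensity for 3439 probes in 12 samples (6 WT, 6 psad1). The unit was taken from the values, and how the arrays were scanned, corrected for background or scaled is not stated in the labels. Intensities under the 5th percentile of each sample's positive values were raised to it, log2 was taken, and 3202 probes remained once 237 that never rose above this floor had been dropped. Raising values to the floor narrows a difference whose lower group falls under it, relative to the deposited values. How reliable values under the floor are was not tested. The whole table was fitted in limma 3.58.1 under R 4.3.3 (Benjamini-Hochberg over 3202 probes, threshold 0.05), on 12 samples and on averages of sets of 2. The fit was tested on simulated data. Nothing in the labels says that samples came from separate plants, so the spread may be technical. For the position correction, deviations from each probe's mean were smoothed in each sample by a running median. It ran over 25 tested probes in order of probe number and was subtracted. The numbers were assumed to follow the array's layout, and a true difference shared by neighbouring probes would be removed too. The running median includes each member's own value.

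Of the probes, 692 list 1 gene, 870 several, and 1877 are unnamed here. The gene table of assembly TAIR10.1 matched 690 of the 692, and all 39 members. It holds few product names, so classes were set by hand from its names and general knowledge, and lists by product keyword found only 2 kinase genes (PRK, left out by the rule, and PPDK at −0.06). No sequence was read, so no promoter was searched. The rule for names took up to 5 members a class by width of difference, those next to the limit, and any with a sample far from its group, of which there were none; the log2 differences of all other members are given too. The members, classes and lists were chosen with earlier results of these data known. The number of samples limits the precision. Figures were drawn with matplotlib 3.10.9.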

Additional observations from a re-analysis of the deposited data

Results flagged for a closer look

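For each of the 39 genes and each genotype, the highest and the lowest of the 6 samples were examined for a gap to the nearest other sample of more than Dixon's limit for 6 values, which chance gives in about 1 of 20 groups of independent samples. Of 78 groups of values, 0 were marked. Since samples of a set resembled each other, this does not detect a whole set standing away from the others.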

How the results depend on the processing

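The number of named genes that met the rule was 39, and 23 with an offset in place of the floor, 16 after position correction (13 of the 39 and 3 others), 19 with position correction and without psad1 samples 1 and 2 (chosen after seeing the data), 23 without psad1 samples 1 and 2, 75 without psad1 samples 3 and 4, and 73 and 20 with limits of −0.20 and −0.30. Leaving out 1 sample gave 28 to 57. None of the 1014 recomputed differences of the 39 genes turned direction, and 22 moved by over 1 SD between samples, 17 of them under position correction. The genes were chosen for this direction and every alternative reused the same samples, so nothing is read from the kept direction.

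Probes lower by limma numbered 258, and 166 without WT samples 5 and 6, 166 without psad1 samples 1 and 2, 433 without psad1 samples 3 and 4, 13 on set averages, 36 with sets as a random block and 104 at an adjusted p of 0.01. Probes higher numbered 247, and 15, 48 and 119 in the last 3 of these. With the sample number as a replicate block 448 were lower and 313 higher. The labels number the samples but state no pairing, and neither the main fit nor the SEs used one. Correlations of same-numbered samples were between 0.00805 and 0.483, over 0.1 in 4 of 6 pairs. The same-numbered sample was the best match for 8 of 12 samples. Any level that same-numbered samples share is therefore counted in the SEs. Examples are AT2G36480 and AT2G11270, whose samples 3 and 4 stood apart in the same direction in both genotypes. Leaving out 1 sample gave 185 to 289 lower and 197 to 275 higher. Probes with every psad1 sample below every WT sample numbered 155, and 251 and 247 without WT samples 1 and 2 or 3 and 4, and 369 and 256 without psad1 samples 3 and 4 or 5 and 6, where fewer samples have to be apart; leaving out 1 sample gave 157 to 204. Other causes were not tested. Signal near the floor limits AT5G05330, AT4G03150, AT1G78790, AT4G22490, AT4G22830 and AT2G27680, and the last 4 of these missed the limit with the floor at the 10th percentile.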
